A study of Mus musculus with 6 samples.

Results

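AMP-activated protein kinase (AMPK) was followed here through 9 genes in the hearts of Mc4r KO and wild-type (WT) mice. These are the genes of its catalytic alpha subunits (Prkaa1, Prkaa2), of its beta subunits (Prkab1, Prkab2) and of its gamma subunits (Prkag1, Prkag2, Prkag3), together with Stk11 and Camkk2, which encode the upstream kinases LKB1 and CaMKK beta. They were picked by gene symbol, with no threshold on a measured value, from the 54532 genes in the deposited expression table, and all 9 were found there. All 9 also passed the filter on low values, which was a mean of 0.1 or more on the scale of the table. Its unit, FPKM, is the number of sequenced fragments on a gene, divided by the length of the gene and by the size of the library.

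AMPK is the energy sensor of the cell. A trimer of 1 alpha, 1 beta and 1 gamma subunit binds AMP, ADP or ATP at the gamma subunit, and it is active once LKB1 or, when calcium rises, CaMKK beta has phosphorylated the activation loop of the alpha subunit. In the heart, where alpha 2 is the main catalytic form, active AMPK favours glucose uptake and fatty acid oxidation over the synthesis of fat, glycogen and protein. Mutations in the gene for gamma 2 cause a cardiomyopathy with glycogen storage in people. The abundance of these messengers is not the activity of the enzyme, which is set mostly by phosphorylation and was not measured in these libraries.

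The libraries came from 6 male mice, each 12 weeks old and each giving heart RNA, of which 3 were Mc4r KO mice that lack the melanocortin-4 receptor and 3 were WT littermates. Polyadenylated RNA was sequenced, in 1 library for each mouse. Both groups were on the C57B/6/N background, were bred from heterozygous parents and ate standard chow. The receptor acts mainly in the brain, where it restrains feeding, and the deletion is in the whole body, so the heart of these mice is also that of an animal prone to obesity. The tissue field of the labels says heart, their titles say muscle, and the study's text also speaks of the left ventricle.

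Between 14691076 and 16047003 reads were counted on genes per library. The deletion could not be checked in these data, because only WT replicate 3 held any reads of Mc4r, and it held 2. The 8 cardiomyocyte markers summed to between 14254 and 18824 FPKM, while the 6 skeletal muscle markers summed to at most 1.49 FPKM and Myh4, the fast myosin of skeletal muscle, was at 0 in every library, so the RNA was that of heart muscle. Several summed marker levels also differed in range between the groups, each sum being led by a few genes. The summed cardiomyocyte markers were 14254 to 15331 FPKM in WT and 17233 to 18824 in Mc4r KO, the 5 fibroblast markers 163 to 174 in WT and 123 to 138 in Mc4r KO, and the 3 erythrocyte markers 758 to 5609 in WT and 557 to 1437 in Mc4r KO, ranges that overlapped. Actc1, the cardiac actin, had 4568 to 5495 FPKM in WT and 7123 to 8307 in Mc4r KO and held most of the first difference, while Tnni3 (log2 fold change −0.01) and Pln (−0.33) were not higher in Mc4r KO. Dcn, at 109 to 125 FPKM in WT and 77.1 to 87.0 in Mc4r KO, held most of the fibroblast sum, and the log2 fold change of Col1a1 had the other sign (0.44). The 4 macrophage markers summed to 27.3 to 36.4 FPKM in WT and 23.5 to 27.8 in Mc4r KO, ranges that overlapped, and 0 of them had a positive log2 fold change. The 4 atrial markers reached 747 FPKM in WT replicate 3 and 6.29 to 136 in the other libraries. No tested gene of these lists, or of the endothelial and smooth muscle lists, passed the test between the groups. The 4 adipocyte markers were too low to be tested, and only 3 of the 6 skeletal muscle markers were tested. The part of any of these cell types in the results below was not tested. In bulk RNA, fewer cells of a type and less RNA per cell cannot be told apart.

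WT replicate 3 stood apart from the other WT libraries. Over the 11297 genes whose mean FPKM was 1 or more, its log2 values correlated with those of WT replicates 1 and 2 at r = 0.946 and 0.952 and with Mc4r KO replicate 1 at r = 0.962. Mitochondrial transcripts took 59.3%, 57.4% and 47.1% of the summed FPKM in WT replicates 1, 2 and 3, and 43.6%, 46.6% and 43.0% in the Mc4r KO libraries. The libraries also differed in how FPKM leaned with GC content. Between genes of 41.4% and 57.9% GC, the log2 deviation from the gene mean shifted by −0.45, −0.20 and 0.09 in WT replicates 1, 2 and 3 and by 0.18 to 0.19 in Mc4r KO. In mitochondrial share and GC shift, WT replicates 1 and 2 thus lay apart from WT replicate 3 and the Mc4r KO libraries. A fit without WT replicate 3 keeps only those WT libraries. In that fit, genotype and these library features cannot be told apart, and its small adjusted p-values carry this limit. For each AMPK gene, the log2 fold change is therefore also given without WT replicate 3 and with the GC trend of each library removed, beside the GC content of its longest transcript.

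Groups were compared with limma on log2(FPKM + 0.1) over the 18035 genes that passed the filter, with two-sided p-values and Benjamini-Hochberg adjustment over all of them. The added 0.1 draws the fold changes of scarce messengers towards 0. A call needed both an adjusted p under 0.05 and a log2 fold change beyond 0.75 in either direction. By this rule 0 of the 9 AMPK genes were called, against 0.46% of all genes tested, and 0 of 9 reached an adjusted p under 0.05 alone, against 0.582%. With limma voom on the recovered reads 0 of 9 were called too, against 1.76%. At an unadjusted p under 0.05 there were 4 of 9 (44.4%), against 20.9% of all genes. Of these, Stk11 and Prkag1 were higher in Mc4r KO (background 12.0%), and Prkab2 and Prkag2 were lower (background 8.83%). The groups did not overlap for 4 members, of which Stk11 and Prkag3 were higher in Mc4r KO (background 14.1%) and Prkab2 and Prkag2 lower (background 12.4%). The median log2 fold change of the 9 members was −0.12, beside −0.01 over all genes tested.

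**Figure D1:**
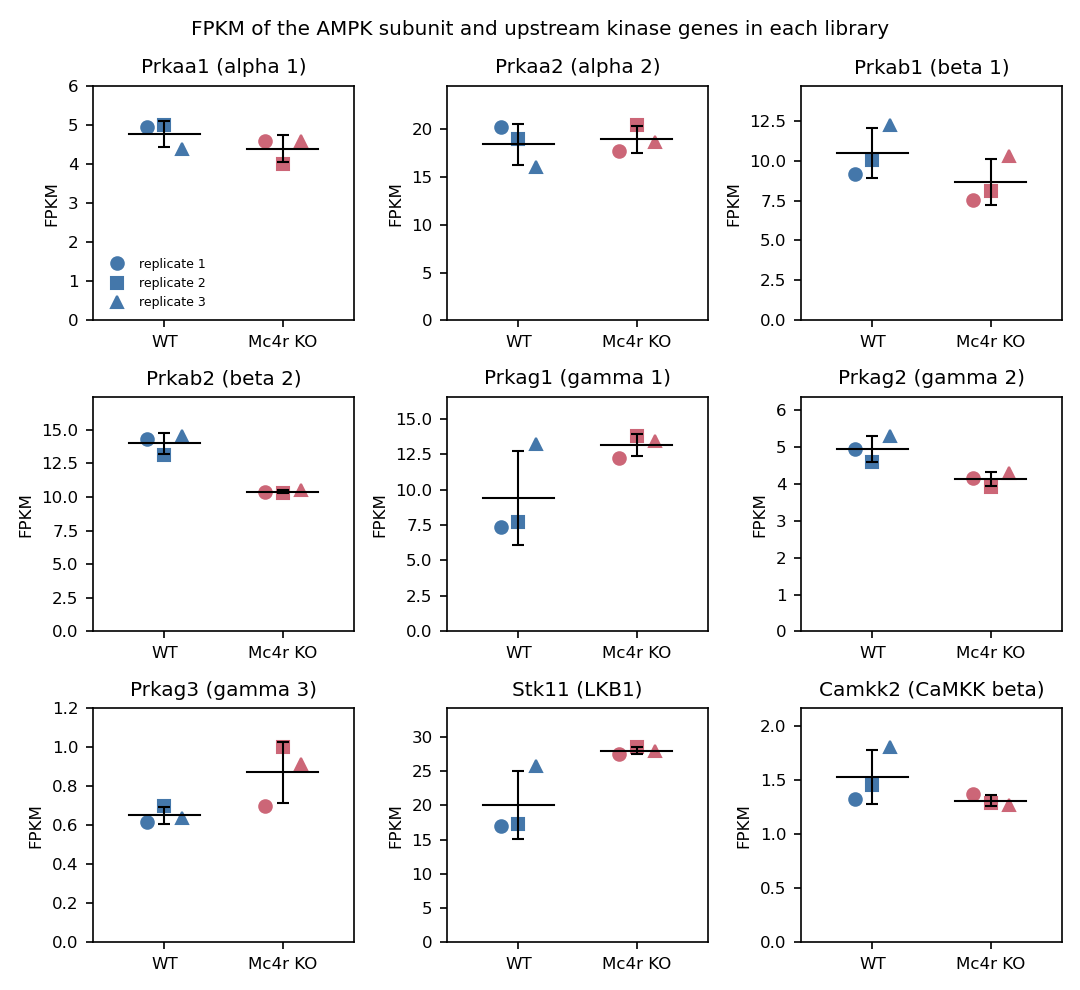
FPKM of each of the 9 genes (y axis, from 0) in the WT and Mc4r KO libraries (x axis), with marker shape giving the replicate number, a horizontal line at the mean and bars of 1 SD (n = 3 mice). WT replicate 3 lies with the Mc4r KO libraries for Prkag1 (13.2 FPKM) and near them for Stk11 (25.8 FPKM), while the 3 Prkab2 values of Mc4r KO lie below all those of WT.

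Prkaa1 and Prkaa2 encode the catalytic subunits alpha 1 and alpha 2. Neither differed detectably between the groups. Prkaa2 (ENSMUSG00000028518, chr4:105029874-105109890, minus strand, mm10) was at 20.3, 19.0 and 16.0 FPKM in WT replicates 1, 2 and 3 and at 17.7, 20.5 and 18.7 FPKM in Mc4r KO replicates 1, 2 and 3. The ranges overlapped, with both the second highest and the lowest value in WT, and the means were 18.4 ± 2.17 (SD, n = 3) and 19.0 ± 1.40 FPKM. The log2 fold change was 0.04 (SE 0.11, limma adjusted p = 0.855), with a 95% interval from −0.22 to 0.31, and its sign turned to −0.06 with quantile normalization and −0.15 with scaling to genes outside the mitochondrial chromosome. It was −0.05 without WT replicate 3 and 0.22 with the GC trend removed (GC content 40.7%). Prkaa1 (ENSMUSG00000050697, chr15:5143861-5181899, plus strand) was at 4.95, 5.01 and 4.39 FPKM in WT and at 4.61, 4.002 and 4.59 FPKM in Mc4r KO. Its groups overlapped too, at a log2 fold change of −0.12 (SE 0.11, limma adjusted p = 0.571, 95% interval −0.38 to 0.14), which was −0.18 without WT replicate 3 and 0.06 with the GC trend removed (GC content 40.2%).

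Alpha 2 was the more abundant messenger in every library. Prkaa2 made up 80.4%, 79.1% and 78.5% of the summed alpha FPKM in WT and 79.3%, 83.6% and 80.3% in Mc4r KO. FPKM is per gene length, which here counts the exonic bases of all annotated transcripts. Levels and shares between genes therefore also depend on that annotation. The means of 79.3% ± 0.943 (SD, n = 3) and 81.1% ± 2.26 did not differ beyond the spread between mice (two-sided exact permutation test, p = 0.3, adjusted over 5 shares 0.5). The summed alpha level was 20.4 to 25.2 FPKM in WT and 22.3 to 24.5 FPKM in Mc4r KO (exact permutation p = 1). With 3 mice against 3, this test cannot give a p below 0.1.

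Prkab1 and Prkab2 encode the beta subunits, the scaffold that holds alpha and gamma together and carries a glycogen-binding domain. Both beta messengers had lower means in Mc4r KO, and Prkab2 had the smallest p of the 9 members. Prkab2 (ENSMUSG00000038205, chr3:97658193-97673812, plus strand) was at 14.3, 13.1 and 14.5 FPKM in WT replicates 1, 2 and 3 and at 10.4, 10.3 and 10.5 FPKM in Mc4r KO replicates 1, 2 and 3. All 3 Mc4r KO values lay below the lowest WT value, and WT replicate 3 lay with the other WT libraries. The mean was 13.98 ± 0.768 FPKM in WT and 10.4 ± 0.134 in Mc4r KO, a ratio of 0.744. The log2 fold change was −0.42 (SE 0.08, 95% interval −0.61 to −0.23), with a limma p of 0.00116 and an adjusted p of 0.07, so it missed the threshold over all genes. It was −0.39 without WT replicate 3 (adjusted p = 0.0335) and −0.38 with the GC trend of each library removed (adjusted p = 0.0904, GC content 46.8%). With the GC trend removed and WT replicate 3 left out it was −0.32 (adjusted p = 0.0611). Over 20 alternative settings the log2 fold change of Prkab2 ran from −0.62 to −0.32 and the adjusted p from 0.0335 to 0.24. The adjusted p was under 0.05 in 4 of them, and the fold never reached the size a call needs.

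Prkab1 (ENSMUSG00000029513, chr5:116013586-116024508, minus strand) was at 9.14, 10.04 and 12.2 FPKM in WT and at 7.52, 8.12 and 10.3 FPKM in Mc4r KO. The highest Mc4r KO value exceeded the lower WT values, so the groups overlapped, and the log2 fold change of −0.28 (SE 0.15, limma adjusted p = 0.359) had an interval from −0.64 to 0.09. It was −0.16 without WT replicate 3 and −0.43 with the GC trend removed (GC content 55.0%). The sum of both beta genes did separate the groups. It was 23.4, 23.1 and 26.7 FPKM in WT and 17.9, 18.4 and 20.8 FPKM in Mc4r KO, a difference of −5.41 FPKM (−4.26 without WT replicate 3) at the smallest p the exact permutation test can give (p = 0.1, adjusted over 3 sums 0.3). Prkab2 held 61.0%, 56.6% and 54.3% of that sum in WT and 57.9%, 55.9% and 50.7% in Mc4r KO, shares that overlapped (difference −2.49 percentage points, exact permutation p = 0.5).

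Prkag1, Prkag2 and Prkag3 encode the gamma subunits, which bind the adenine nucleotides. Prkag1, the broadly expressed gamma 1, had a higher mean in Mc4r KO, and Prkag2, the cardiomyopathy gene, a lower one. Prkag1 (ENSMUSG00000067713, chr15:98812797-98831521, minus strand) was at 7.34, 7.68 and 13.2 FPKM in WT replicates 1, 2 and 3 and at 12.2, 13.8 and 13.4 FPKM in Mc4r KO replicates 1, 2 and 3. WT replicate 3 lay within the Mc4r KO range, and the other WT libraries lay far below it. These values rest on 225, 240 and 490 reads in WT and 413, 455 and 468 reads in Mc4r KO. With all libraries the means were 9.42 ± 3.31 and 13.1 ± 0.804 FPKM (SD over 3 mice). The log2 fold change was 0.53 (SE 0.22), with a limma p of 0.0452 and an adjusted p of 0.23.

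Without WT replicate 3 the log2 fold change of Prkag1 was 0.80 (SE 0.09, adjusted p = 0.00956), and Prkag1 was then called, 1 of 9 members against 4.04% of the 17966 genes tested in that fit. Stk11, Prkab2 and Prkag1, 3 of 9 members, had an adjusted p under 0.05 in it, against 10.3% of genes. No member was called in any of the other 19 alternative settings. Prkag1 had a log2 fold change of 0.37 without WT replicate 1 (adjusted p = 0.483) and 0.41 without WT replicate 2 (adjusted p = 0.457). With the GC trend removed the log2 fold change of Prkag1 (GC content 52.8%) was 0.43 with all libraries and 0.67 without WT replicate 3 (adjusted p = 0.0137). The exons of B130046B21Rik, on the opposite strand, cover 43.7% of the exonic bases of Prkag1, and the sources used here do not say whether the counting used strand. At most 6 reads were counted on B130046B21Rik in any library, and without strand, reads of Prkag1 and of B130046B21Rik cannot be told apart in the shared bases.

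Prkag2 (ENSMUSG00000028944, chr5:24862744-25100642, minus strand) was at 4.95, 4.59 and 5.30 FPKM in WT and at 4.17, 3.92 and 4.30 FPKM in Mc4r KO. All 3 Mc4r KO values lay below the lowest WT value. The log2 fold change was −0.25 (SE 0.10, 95% interval −0.49 to −0.01), with a limma p of 0.041 and an adjusted p of 0.221. It was −0.20 without WT replicate 3 and −0.29 with the GC trend removed (GC content 50.1%). Exons of the antisense genes Prkag2os1 and Prkag2os2 cover 14.5% of its exonic bases. Prkag3 (ENSMUSG00000006542, chr1:74738922-74749221, minus strand), the gamma 3 form of fast skeletal muscle, was scarce, at 0.616, 0.70 and 0.638 FPKM in WT and at 0.70, 1.001 and 0.914 FPKM in Mc4r KO. These were 32 to 40 reads in WT and 40 to 56 reads in Mc4r KO, the groups all but touched at 0.70 FPKM, and the log2 fold change of 0.36 (SE 0.20, limma adjusted p = 0.345) had an interval from −0.10 to 0.82. It was 0.35 without WT replicate 3 and 0.25 with the GC trend removed (GC content 53.1%).

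Within the gamma pool the Prkag1 mean was higher and the Prkag2 mean lower in Mc4r KO, and both shares separated the groups. Prkag1 held 56.9%, 59.2% and 69.0% of the summed gamma FPKM in WT and 71.5%, 73.7% and 72.0% in Mc4r KO, with every Mc4r KO library above every WT library. The difference of 10.7 percentage points (61.7% ± 6.44 against 72.4% ± 1.12, SD, n = 3) had the smallest p the exact permutation test allows (p = 0.1, adjusted over 5 shares 0.25). Without WT replicate 3 it was 14.4 points, and over the leave-one-out fits it stayed between 8.28 and 14.4. Prkag2 held 38.3%, 35.4% and 27.7% in WT and 24.4%, 20.98% and 23.1% in Mc4r KO, again without overlap (difference −11.0 points, exact permutation p = 0.1). Prkag3 held between 3.33% and 5.39% of the gamma pool in every library. Shares of a pool trade off against one another, so the difference in the Prkag2 share largely mirrors that of Prkag1 and is not a separate result. The summed gamma level was 12.9, 12.97 and 19.2 FPKM in WT and 17.1, 18.7 and 18.6 FPKM in Mc4r KO (exact permutation p = 0.4), with the highest value in WT replicate 3. The mean difference was 3.13 FPKM with all libraries and 5.20 FPKM without WT replicate 3.

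**Figure D2:**
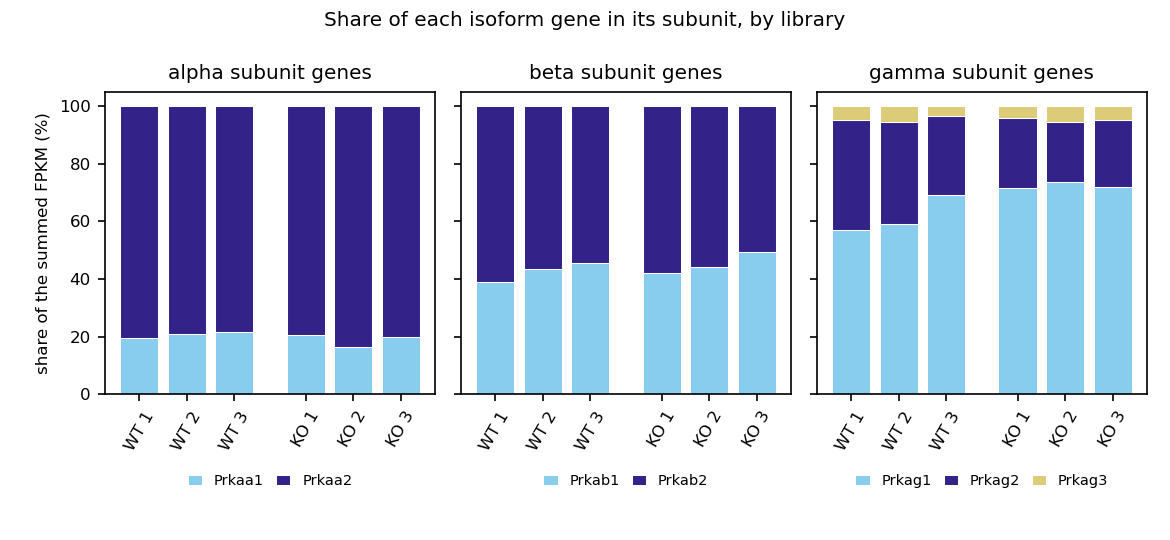
Share of each isoform gene in the summed FPKM of the alpha, beta and gamma genes (y axis, percent) in each of the 6 libraries (x axis, KO for Mc4r KO), as stacked bars. The Prkag1 share of the gamma genes lies between 56.9% and 69.0% in WT and between 71.5% and 73.7% in Mc4r KO, while the alpha and beta shares overlap between the groups.

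Stk11 encodes LKB1, the kinase that phosphorylates AMPK when energy is low and that also activates a family of AMPK-related kinases. It was the most abundant of the 9 messengers by mean in both groups. Stk11 (ENSMUSG00000003068, chr10:80115803-80130682, plus strand) was at 17.0, 17.3 and 25.8 FPKM in WT replicates 1, 2 and 3 and at 27.6, 28.5 and 27.97 FPKM in Mc4r KO replicates 1, 2 and 3. Every Mc4r KO value lay above every WT value, and WT replicate 3 lay closer to Mc4r KO than to the other WT libraries. The mean was 20.02 ± 4.98 FPKM in WT and 28.02 ± 0.481 in Mc4r KO, a ratio of 1.40. The log2 fold change was 0.51 (SE 0.16, 95% interval 0.13 to 0.89), with a limma p of 0.0153 and an adjusted p of 0.147.

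The value for Stk11 moved with 2 features of the libraries. Without WT replicate 3 the log2 fold change was 0.71 (SE 0.06, adjusted p = 0.00643), still under the fold of a call. It was 0.40 without WT replicate 1 (adjusted p = 0.351) and 0.42 without WT replicate 2 (adjusted p = 0.326). The longest transcript of Stk11 has a GC content of 59.5%, the highest of the 9 members, and with the GC trend of each library removed the log2 fold change was 0.26 (SE 0.10, adjusted p = 0.23). With the GC trend removed and WT replicate 3 left out it was 0.36 (adjusted p = 0.0416). Scaling to genes outside the mitochondrial chromosome gave 0.32, where the median of all genes stood at −0.19. The direction was the same in all 20 alternatives.

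Camkk2 (ENSMUSG00000029471, chr5:122731170-122779409, minus strand) encodes the calcium-dependent kinase CaMKK beta and was far less abundant than Stk11. It was at 1.32, 1.45 and 1.80 FPKM in WT and at 1.37, 1.29 and 1.27 FPKM in Mc4r KO. The groups overlapped and WT replicate 3 had the highest value. The log2 fold change was −0.19 (SE 0.16, limma adjusted p = 0.532), with an interval from −0.56 to 0.18, and was −0.07 without WT replicate 3 and −0.30 with the GC trend removed (GC content 53.1%).

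**Figure D3:**
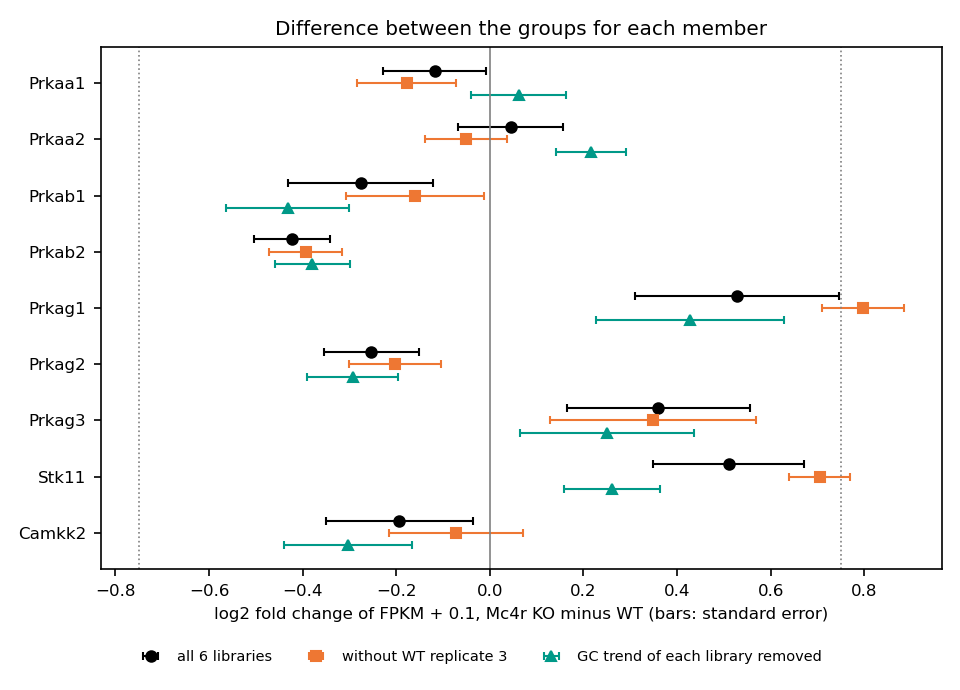
Log2 fold change of FPKM + 0.1, Mc4r KO minus WT (x axis), for each of the 9 genes (y axis), with bars of 1 standard error, from all 6 libraries, without WT replicate 3 and with the GC trend of each library removed. Dotted lines mark the fold a call needs (0.75). Prkab2 stays between −0.42 and −0.38 in the 3 fits, while Stk11 runs from 0.26 to 0.71 and Prkag1 from 0.43 to 0.80.

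By FPKM, the order of the 9 messengers in WT was Stk11, Prkaa2, Prkab2, Prkab1, Prkag1, Prkag2, Prkaa1, Camkk2 and Prkag3. Such an order depends also on the annotated exonic length of each gene. Stk11 and Prkaa2, Prkab1 and Prkag1, and Prkag2 and Prkaa1 were neighbours in this order whose ranges overlapped over the 3 WT libraries. In Mc4r KO the order was Stk11, Prkaa2, Prkag1, Prkab2, Prkab1, Prkaa1, Prkag2, Camkk2 and Prkag3, and Prkaa1 and Prkag2 were the neighbours whose ranges overlapped. Prkag1 thus stood below both beta genes by mean in WT and above both in Mc4r KO. Its WT range also overlapped that of Prkab2, because Prkag1 in WT replicate 3 (13.2 FPKM) exceeded Prkab2 in WT replicate 2 (13.1 FPKM). Within WT replicate 3 Prkag1 stood above Prkab1 (12.2 FPKM). Among the genes tested, 92.4% had a lower mean FPKM than Stk11, 89.97% a lower one than Prkaa2, 43.0% a lower one than Camkk2 and 33.2% a lower one than Prkag3.

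The promoters of the 3 members with an adjusted p under 0.05 in at least 1 alternative are printed, so that Stk11 and Prkag1, higher in Mc4r KO, can be set beside Prkab2, lower in Mc4r KO. They come from RefSeq on GRCm38.p6, run 5′ to 3′ on the strand of the gene from 250 bases before to 50 bases after its start, and show motifs in capitals, found on either strand. The motifs are the CCAAT box, the GC box with the letters GGGCGG, and a FOXO motif with the letters GTAAACA. Stk11 is at chr10:80115545-80115844 (plus strand), Prkag1 at chr15:98831459-98831758 (minus strand) and Prkab2 at chr3:97657962-97658261 (plus strand).
Stk11: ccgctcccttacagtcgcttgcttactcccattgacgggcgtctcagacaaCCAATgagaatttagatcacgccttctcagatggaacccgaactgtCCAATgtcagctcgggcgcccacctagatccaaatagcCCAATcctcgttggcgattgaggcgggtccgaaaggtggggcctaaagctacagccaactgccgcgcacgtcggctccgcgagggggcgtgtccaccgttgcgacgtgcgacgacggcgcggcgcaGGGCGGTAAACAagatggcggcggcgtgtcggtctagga
Prkag1: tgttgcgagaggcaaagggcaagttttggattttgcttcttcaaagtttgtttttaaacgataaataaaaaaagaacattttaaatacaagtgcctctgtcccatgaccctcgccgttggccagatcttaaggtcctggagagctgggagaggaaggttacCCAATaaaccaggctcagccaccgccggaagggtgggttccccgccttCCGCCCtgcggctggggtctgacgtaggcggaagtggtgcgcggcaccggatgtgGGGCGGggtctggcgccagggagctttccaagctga
Prkab2: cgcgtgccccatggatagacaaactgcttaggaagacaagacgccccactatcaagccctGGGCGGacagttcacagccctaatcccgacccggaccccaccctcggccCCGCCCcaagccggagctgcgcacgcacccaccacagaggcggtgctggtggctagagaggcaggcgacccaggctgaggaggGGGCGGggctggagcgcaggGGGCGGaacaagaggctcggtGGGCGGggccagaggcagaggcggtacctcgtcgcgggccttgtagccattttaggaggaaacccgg

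The windows of Stk11, Prkag1 and Prkab2 have a GC content of 61.3%, 54.7% and 68.0% and hold 33, 16 and 23 CpG pairs, beside medians of 52.7% and 7 over the 32851 promoters of the RefSeq table. CCAAT was found 3 times in the Stk11 window, 1 time in that of Prkag1 and not in that of Prkab2, and occurs in 37.4% of all promoters of this length. It was also found 3 times over the windows of Prkag2 and 1 time in Camkk2, both lower in mean in Mc4r KO. Prkaa1, Prkaa2, Prkab1 and Prkag3 had no CCAAT, so its presence did not follow the direction of the fold change. GGGCGG was found 1 time in Stk11, 2 times in Prkag1 and 5 times in Prkab2, and occurs in 35.7% of promoters. It was also found 5 times in Prkaa1, 3 times over the windows of Prkag2, 2 times in Prkaa2 and 1 time in Camkk2. Prkab1 and Prkag3 had no GGGCGG. The Stk11 window alone among the 11 windows of the 9 members held GTAAACA, which occurs in 3.65% of promoters, and there its first letter is the last letter of the GC box. The E-box CACGTG (7.15% of promoters) and TATAAA (13.6%) were in none of the member windows. A match describes these letters only.

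LKB1 works in a complex with a STRAD pseudokinase and the scaffold MO25, and the other 65 genes of the pathway were taken as 7 lists by role, which share a few genes with one another and with the 9 members. Of these 65 genes 63 were tested, 0 were called by limma, 2 were called by limma voom (Fnip2 and Srebf1), beside 0.46% and 1.76% of all genes. At an unadjusted p under 0.05 there were 18 (28.6%, beside 20.9% of all genes), of which 11 were higher and 7 lower in Mc4r KO. In each list below, the counts in the 2 directions at this p stand beside 12.0% higher and 8.83% lower among all genes. The median log2 fold change of the 65 genes was 0.00. In the LKB1 complex, 1 of 5 genes was higher at an unadjusted p under 0.05 (Stk11) and 1 lower. The lower one was Cab39l, for MO25 beta, at 4.16, 3.54 and 3.48 FPKM in WT and 2.35, 2.67 and 2.76 FPKM in Mc4r KO (log2 fold change −0.51, SE 0.12, limma adjusted p = 0.0996). Strada (−0.21), Stradb (0.22) and Cab39 (−0.02, for MO25 alpha) had adjusted p-values from 0.409 to 0.904.

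Among the 4 upstream kinases, Stk11 was higher and Map3k7 lower at an unadjusted p under 0.05. Map3k7, which encodes TAK1, was at 12.0, 12.6 and 10.1 FPKM in WT and 8.87, 8.17 and 9.59 FPKM in Mc4r KO, without overlap (log2 fold change −0.38, SE 0.11, limma adjusted p = 0.136). Without WT replicate 3 it was −0.47 (adjusted p = 0.036). Camkk1 was near the level of Prkag3 and had a log2 fold change of −0.18 (adjusted p = 0.82).

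Of the 9 regulators of AMPK, 1 was higher and 1 lower at an unadjusted p under 0.05. Ppm1a, a phosphatase that can reverse the phosphorylation of AMPK, had a log2 fold change of 0.29 (SE 0.08, limma adjusted p = 0.114). Fnip2, which with folliculin (Flcn) forms a complex that binds AMPK, was at 4.54, 3.17 and 2.48 FPKM in WT and 2.06, 1.80 and 1.70 FPKM in Mc4r KO. Its groups did not overlap, its fold was past 0.75 (−0.80, SE 0.22), and its adjusted p was 0.118. Without WT replicate 3 it was −0.9998 and was called (adjusted p = 0.0288), and without WT replicate 1, the library with the highest value, it was −0.58 (adjusted p = 0.25). Flcn (−0.10), Fnip1 (−0.14), Ppm1e (−0.06) and the sestrin genes Sesn1 (−0.09), Sesn2 (−0.16) and Sesn3 (−0.26) had adjusted p-values from 0.303 to 0.855.

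Most of the AMPK-related kinases are activated by LKB1, as AMPK is. Of the 12 that were tested, 4 were higher and 1 lower at an unadjusted p under 0.05, and the median log2 fold change was 0.11. The lower one, Sik1, the salt-inducible kinase that responds to cAMP, was at 11.9, 14.7 and 14.3 FPKM in WT and 7.86, 8.52 and 8.53 FPKM in Mc4r KO. The groups were clearly apart, and at a log2 fold change of −0.70 (SE 0.11) its limma adjusted p was 0.0486, and its fold alone kept it from a call. The adjusted p of Sik1 was under 0.05 in 11 of 20 alternatives and ran from 0.0107 to 0.176. Of the 4 higher ones, Snrk had the largest log2 fold change, 0.37 (SE 0.10, adjusted p = 0.108). Nuak1 had 0.20 (adjusted p = 0.515).

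Of 22 substrates, 3 were higher and 1 lower at an unadjusted p under 0.05, with a median log2 fold change of 0.02. Gys1, the muscle glycogen synthase, which AMPK inhibits, was singled out after its values were seen, as the substrate with an adjusted p under 0.05. It was at 19.2, 18.7 and 20.8 FPKM in WT and 29.2, 34.3 and 33.2 FPKM in Mc4r KO, far apart and with WT replicate 3 among the WT libraries (log2 fold change 0.72, SE 0.09, limma adjusted p = 0.0396). The adjusted p of Gys1 was under 0.05 in 9 of 20 alternatives and ran from 0.00601 to 0.155, and Gys1 was called in 1 of them, without WT replicate 3. With the GC trend removed it was 0.55 (adjusted p = 0.0521, GC content 55.4%). Srebf1, a factor of fat synthesis, was at 4.41, 4.597 and 6.62 FPKM in WT and 7.51, 8.56 and 10.4 FPKM in Mc4r KO (0.76, SE 0.19, adjusted p = 0.101), and was called without WT replicate 3 (0.94, adjusted p = 0.0195). The value for Srebf1 was 0.65 without WT replicate 1 (adjusted p = 0.263) and 0.54 with the GC trend removed (GC content 58.4%). The lower one was Tbc1d4, which restrains the glucose transporter GLUT4 (−0.34, SE 0.12, adjusted p = 0.187). The acetyl-CoA carboxylases Acaca (−0.28) and Acacb (0.14), the autophagy kinase Ulk1 (−0.07), Tbc1d1 (−0.43), Pfkfb2 (0.00), the coactivator Ppargc1a (0.00) and Txnip (0.13) had adjusted p-values from 0.259 to 0.998, and the signs for Acacb, Pfkfb2 and Txnip turned with quantile normalization and with scaling to genes outside the mitochondrial chromosome.

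Of the 9 tested enzymes that set AMP, ADP and ATP, 2 were higher and 1 lower at an unadjusted p under 0.05, and the list had the highest median, 0.26. Ak1, the cytosolic adenylate kinase of muscle, which makes AMP and ATP from ADP, was at 146, 161 and 188 FPKM in WT and 206, 234 and 221 FPKM in Mc4r KO (log2 fold change 0.42, SE 0.12, limma adjusted p = 0.12), and without WT replicate 3 it had 0.52 (adjusted p = 0.0234). Ak3, a gene of the same family whose enzyme lies in the mitochondrial matrix, was lower in mean (−0.27, adjusted p = 0.169), at −0.36 without WT replicate 3 (adjusted p = 0.0288). Ampd3 (0.29) and the muscle creatine kinase Ckm (0.15) had adjusted p-values of 0.285 and 0.483, and the sign for Ckm turned under both scalings named above.

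Adiponectin and leptin act on AMPK through their receptors. Of 5 genes, Adipor2 was higher and Lepr lower at an unadjusted p under 0.05. Adipor2 was at 14.5, 16.1 and 15.2 FPKM in WT and 17.9, 19.6 and 20.8 FPKM in Mc4r KO (log2 fold change 0.35, SE 0.09, limma adjusted p = 0.108). Lepr was scarce, at 1.01, 0.71 and 0.84 FPKM in WT and 0.57, 0.61 and 0.50 FPKM in Mc4r KO (−0.52, SE 0.20, adjusted p = 0.206). Adipor1, the more abundant of the adiponectin receptors, had a log2 fold change of 0.07 (adjusted p = 0.583), whose sign turned under the same scalings.

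**Figure D4:**
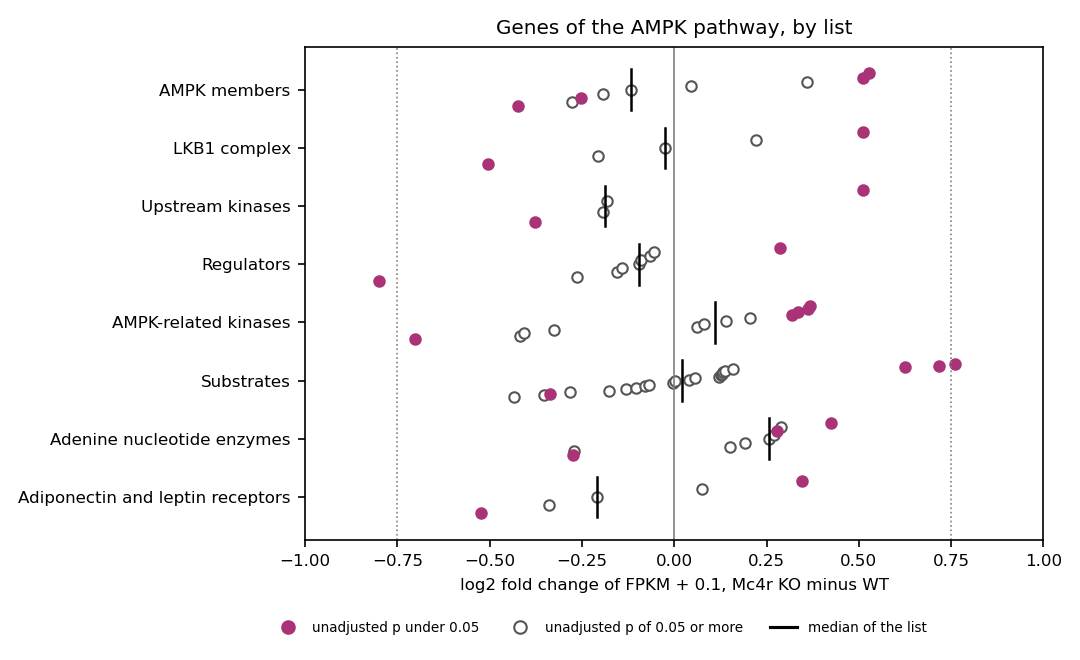
Log2 fold change of FPKM + 0.1, Mc4r KO minus WT (x axis), of each tested gene in the 9 members and the 7 other lists (y axis), with filled points for an unadjusted p under 0.05, a black bar at the median of the list and dotted lines at the fold a call needs (0.75). Points lie on both sides of 0 in every list, from Fnip2 at −0.80 to Srebf1 at 0.76, and no gene was called.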

How the data were processed

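RNA of 6 mouse hearts was sequenced in paired ends from polyadenylated RNA. The authors aligned the reads with HISAT2 (version 2.0.5) and counted them on genes with featureCounts, and the submitters' processing notes name mm10. The annotation release and the strand setting are not given in the sources used here. The deposited table holds FPKM, whose values were already on a common scale between libraries, as the equal factors below show. The study's text does not describe such a scaling. FPKM times gene length gave whole reads for 100% of the values (tolerance 0.01 reads).

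The median-of-ratios factor computed from the FPKM was the same for every library. Genes whose mean FPKM was 0.1 or more were tested with limma (version 3.58.1, R 4.3.3) on log2(FPKM + 0.1) with the empirical Bayes trend and no covariate, which takes the place of the count test of the study. Shares and sums of subunit genes were compared by the exact permutation test. The script was tested on simulated data. Gene positions and overlaps were checked against GENCODE M21, where 99.8% of the identifiers were found. The GC trend of each library was removed with lowess (span 0.3) on genes whose mean FPKM was 1 or more, an alternative chosen after seeing the data.

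Other alternatives changed the pseudocount, filter, scaling, trend, weights or gene set, used limma voom on the recovered reads, blocked on the replicate number or left out each library. The members and lists were chosen with earlier results of these data known. Named genes are the 9 members, examples set by role in each list, every called list gene, and in each list the highest and the lowest log2 fold change at an unadjusted p under 0.05. The p-values measure the spread between 3 mice per group.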

Additional observations from a re-analysis of the deposited data

How the results depend on the processing

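No member was called in 19 of 20 alternatives, and the exception was the fit without WT replicate 3 (1, Prkag1), so the leave-one-out range was 0 to 1. The number of members at an unadjusted p under 0.05 was 2 for limma without trend and 1 to 3 when each library was left out in turn. Calls among the regulators (Fnip2) were 1 with array weights, with limma voom on the recovered reads, and with the GC trend removed and WT replicate 3 left out (leave-one-out 0 to 1). Among the AMPK-related kinases (Sik1) they were 1 with quantile normalization, with the scaling that leaves out mitochondrial genes, and with the GC trend removed with or without WT replicate 3. Among the substrates they were 1 with array weights and with limma voom (Srebf1), and 0 to 2 when each library was left out (Srebf1 and Gys1 without WT replicate 3). The other lists had 0 calls in every alternative. The cause of these shifts was not tested.

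The difference in the Prkab2 share was 0.898 percentage points with the GC trend removed. That in the Prkag3 share was −0.301 to 0.733 points over the leave-one-out fits. That in the summed alpha FPKM was −3.19 without mitochondrial genes in the scaling, −1.31 with quantile normalization and −1.25 to 1.15 over the leave-one-out fits.

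Signs of small log2 fold changes turned as follows. With the GC trend removed the values were 0.062 for Prkaa1, 0.0497 for Cab39, 0.0573 for Fnip1, 0.0116 for Ppm1e, −0.0531 for Acacb, 0.149 for Ppargc1a and −0.0479 for Adipor1. With WT replicate 3 left out as well they were 0.072 for Prkaa1, 0.024 for Strada, 0.0508 for Cab39, 0.0696 for Fnip1, −0.0716 for Acacb, −0.0426 for Pfkfb2, 0.186 for Ppargc1a, −0.0745 for Ckm and −0.0841 for Adipor1. With quantile normalization they were −0.0587 for Prkaa2, −0.0122 for Acacb, −0.0299 for Pfkfb2, −0.0676 for Txnip, −0.0597 for Ckm and −0.0846 for Adipor1. Without mitochondrial genes in the scaling, the median of all genes was at −0.191, and the values were −0.15 for Prkaa2, −0.0581 for Acacb, −0.19 for Pfkfb2, −0.0624 for Txnip, −0.0451 for Ckm and −0.121 for Adipor1. Ppargc1a was at 0.0133 with array weights, and Pfkfb2 at −0.00285 with a pseudocount of 1. Leaving out each library in turn gave −0.0514 to 0.115 for Prkaa2, −0.0744 to 0.0108 for Cab39, −0.524 to 0.129 for Camkk1, −0.157 to 0.0183 for Sesn1, −0.185 to 0.0417 for Ppm1e, −0.145 to 0.257 for Pfkfb2, −0.181 to 0.0137 for Ulk1 and −0.0575 to 0.0701 for Ppargc1a. Of 43 named genes, 28 had no change of sign in any alternative.

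Same-numbered mice of the 2 groups did not deviate together (r = −0.14, 0.01 and −0.08 over 11297 genes), so these values gave no sign of pairing by number. They cannot exclude a pairing by litter, because the deviations also carry differences between libraries. With the replicate number as a block, 0 members were called and 4 had an unadjusted p under 0.05. Over all genes the count of calls was 83 in the main comparison, 11 with the replicate block, 44 with a pseudocount of 1, 22 without a filter on low values, 147 among genes of mean FPKM 1 or more, 49 with quantile normalization, 41 without mitochondrial genes in the scaling, 21 without trend, 435 with array weights, 317 with limma voom, 204 when only protein-coding genes were tested, and 449 with the GC trend removed and without WT replicate 3. It was 726 without WT replicate 3 and 7 to 14 without any other single library. Counts on the scarcest member, Prkag3 (32 to 56 reads), and the 3 mice per group limit what could be detected. Camkk2, the next scarcest by FPKM, had 203 to 335 reads.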
